A study of Rattus norvegicus with 158 samples.

Results

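Proliferation genes are transcripts made by dividing cells, and 38 of them were listed for rat thigh muscle, 10 whose products act in S phase and 28 whose products act in G2 and mitosis. Each gene was read from a probe set annotated to that gene alone, and where several existed the probe set with the highest mean over all arrays was used. Of the 38 genes, 37 were measured in this way, among 14217 genes with a probe set of their own. Anln, an actin-binding protein of the cleavage furrow, was read only together with Anlnl1 and is named without values. The measured genes were all 10 of the S phase list and 27 of the G2 and mitosis list.

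A cell that divides first copies its DNA in S phase, for which it loads the Mcm helicase on the chromosomes, clamps the polymerases to the template with Pcna and makes deoxynucleotides with Rrm1, Tyms and Tk1. It then enters mitosis under Cdk1 and its cyclins, builds a spindle with kinesins, parts the chromosomes once Cdc20 and Ube2c have marked cyclins and securin for destruction, and divides the cytoplasm with Prc1, Racgap1 and Ect2. Muscle fibres themselves do not divide, so in grown muscle such transcripts are known from satellite cells, from vessel and connective tissue cells and from blood-borne cells. In bulk muscle, fewer dividing cells and less of a transcript in each cell cannot be told apart.

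Thigh muscle was taken from male Sprague-Dawley rats, bought at 6 to 8 weeks of age and dosed each day by oral gavage, after 3 d or 5 d, with 1 array per animal sample. Treated rats gave 122 arrays for 21 compounds, each at 1 dose, and rats given only a vehicle gave 36 arrays. In water were given Dexchlorpheniramine (47 mg/kg), Dicyclomine (645), Etidronate (1005), Gabapentin (2500), Losartan (1000), Oxybutynin (230), Paroxetine (104), Phenytoin (572) and Trimethadione (535). In CMC were given Atenolol (1000 mg/kg), Azaribine (750), Buspirone (196), Chlorpropamide (269), Famotidine (1200), Flunarizine (126), Glyburide (1500), Guanethidine (132), Levosulpiride (1200), Pentoxifylline (1170), Spironolactone (300) and Sulpiride (1000). There were 4 arrays of Dicyclomine, 5 each of Glyburide and Paroxetine and 6 of every other compound, 3 per time. Of the controls, 18 arrays came from rats given Water, 12 from rats given CMC and 6 from rats given CMC/SDS/Povidone, the last at 5 d and in no comparison with a compound. Every compound of a vehicle was set against the same controls, so the comparisons within a vehicle are not independent of each other.

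Some arrays stood apart before any comparison. On 23 arrays, 17 of treated rats and 6 of controls, the mean of a marker list of testis, intestine, liver, heart or lymphoid tissue lay more than 2 log2 units above its median over all arrays. On the Water control 5 d replicate 4, the spermatid genes Prm1 and Tnp1 read 13.46 and 12.86, and 19 of the 27 G2 and mitosis members lay above every other Water control, with Cdkn3 at 10.55 against at most 6.47 elsewhere. On 3 arrays with lymphoid transcripts, Pentoxifylline 3 d replicate 3, Glyburide 3 d replicate 1 and the CMC control 5 d replicate 2, between 6 and 8 of the 10 S phase members lay above the rest of their own set, as did 12, 15 and 4 of the 27 G2 and mitosis members. On 11 arrays, 9 of treated rats and 2 of controls, of which 1 was also among the 23, the mean of myelin genes lay over the same limit, and 2 of the 4 Dicyclomine arrays were among them. The Gapdh control probe sets differed by over 1 log2 unit between the 3' and the 5' end, a sign of degraded RNA, on Glyburide 5 d replicate 2 (3.02), Chlorpropamide 3 d replicate 2 (1.58) and Atenolol 3 d replicate 1 (1.26). RNA had been extracted in 7 batches, called A to G here. Batch D held 30 treated arrays and 0 controls, and 8 compounds, all given in CMC, shared no batch with a CMC control, namely Buspirone, Pentoxifylline, Flunarizine, Atenolol, Levosulpiride, Guanethidine, Glyburide and Chlorpropamide. For these, batch and compound cannot be told apart within a batch. A fit with batch links them to CMC controls only through arrays of other compounds and, in batch E, through 1 Water control. Arrays were also hybridized in 2 periods, and all CMC controls lay in period 1. Atenolol, Glyburide and Levosulpiride had no array in it, so period and compound cannot be told apart there. The titles also name the animal study, and 17 of the 21 compounds had no control of their own vehicle and study, so that study and compound cannot be told apart there. Counts are therefore given with all arrays, with extraction batch as a term in 1 fit of all arrays, and without the 23 arrays.

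The promoters of the members were searched for 3 short motifs. The CHR, a cell cycle element that the DREAM and MuvB complexes bind, was searched as TTTGAA or TTTAAA, the CCAAT box as CCAAT, and the E2F site as TTTCGCGC, TTTCCCGC, TTTGGCGC or TTTGCCGC, on both strands of the RefSeq window of 250 bases before to 50 bases after the start (GRCr8). Windows were found for 32 of the 37 members and not for Ube2c, Racgap1, Aurkb, Ccna2 and Mcm4, and Cdkn3 had more than 1 window, of which the first listed was used. The sequences of Top2a, Cdk1, Prc1 and Cks2, the G2 and mitosis members with a window that were called most often, and of Mcm6 and Pcna, the S phase members described most, are shown with every motif in capitals. Top2a lies on chr10:84473044-84473343, minus strand, Cdk1 on chr20:19265043-19265342, plus strand, Prc1 on chr1:143659231-143659530, plus strand, Cks2 on chr17:13727470-13727769, minus strand, Mcm6 on chr13:42404303-42404602, minus strand and Pcna on chr3:139955771-139956070, minus strand. In Mcm6 a pair of E2F matches on opposite strands overlap in 1 run of capitals, and elsewhere no motif overlaps another. A motif on the other strand stands as its reverse complement, as in ATTGG for the CCAAT box.
Top2a: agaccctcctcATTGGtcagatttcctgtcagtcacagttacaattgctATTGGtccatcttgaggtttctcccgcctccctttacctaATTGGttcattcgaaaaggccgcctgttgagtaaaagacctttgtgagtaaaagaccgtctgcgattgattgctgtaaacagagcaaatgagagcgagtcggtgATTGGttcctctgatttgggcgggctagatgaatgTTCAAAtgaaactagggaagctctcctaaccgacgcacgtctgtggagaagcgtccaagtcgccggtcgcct
Cdk1: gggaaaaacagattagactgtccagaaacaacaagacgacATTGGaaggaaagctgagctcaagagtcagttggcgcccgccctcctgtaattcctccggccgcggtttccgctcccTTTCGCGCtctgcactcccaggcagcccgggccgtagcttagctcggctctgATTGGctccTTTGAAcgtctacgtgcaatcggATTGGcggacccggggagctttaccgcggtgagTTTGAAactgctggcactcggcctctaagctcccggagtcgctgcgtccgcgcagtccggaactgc
Prc1: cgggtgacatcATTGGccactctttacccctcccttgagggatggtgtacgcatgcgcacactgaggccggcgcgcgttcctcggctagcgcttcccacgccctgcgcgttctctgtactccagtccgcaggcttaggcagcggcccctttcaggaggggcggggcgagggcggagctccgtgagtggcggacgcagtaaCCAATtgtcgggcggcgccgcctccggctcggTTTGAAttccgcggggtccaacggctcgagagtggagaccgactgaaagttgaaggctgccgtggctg
Cks2: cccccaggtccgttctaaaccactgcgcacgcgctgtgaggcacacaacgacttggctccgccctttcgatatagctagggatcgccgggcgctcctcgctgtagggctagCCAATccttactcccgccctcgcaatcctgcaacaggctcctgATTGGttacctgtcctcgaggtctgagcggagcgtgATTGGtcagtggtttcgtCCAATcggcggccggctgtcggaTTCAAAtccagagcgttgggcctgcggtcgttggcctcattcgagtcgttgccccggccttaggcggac
Mcm6: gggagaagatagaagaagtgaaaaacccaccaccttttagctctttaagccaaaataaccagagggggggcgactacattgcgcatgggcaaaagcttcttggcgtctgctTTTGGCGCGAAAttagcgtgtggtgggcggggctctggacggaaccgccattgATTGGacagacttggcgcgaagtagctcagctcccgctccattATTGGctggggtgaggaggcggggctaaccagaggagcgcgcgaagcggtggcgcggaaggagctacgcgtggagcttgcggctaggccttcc
Pcna: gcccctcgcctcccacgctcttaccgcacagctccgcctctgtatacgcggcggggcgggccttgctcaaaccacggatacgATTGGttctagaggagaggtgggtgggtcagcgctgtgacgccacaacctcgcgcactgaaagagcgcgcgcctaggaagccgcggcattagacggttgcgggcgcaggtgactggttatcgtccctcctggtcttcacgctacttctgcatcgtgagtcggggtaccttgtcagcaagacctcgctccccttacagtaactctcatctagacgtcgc

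A CHR stood in 22 of 23 windows of G2 and mitosis members, all but that of Melk, a kinase of dividing cells, and in 1 of 9 windows of S phase members. Of all 33469 windows of this length, 28.3% held one. The CHR lay 22 bases before the start in Top2a, 18 in Prc1 and 19 in Cks2, and Cdk1 had a pair of them, at 72 and 16 bases before the start. CCAAT stood in 19 of 23 G2 and mitosis windows and 6 of 9 S phase windows (37.5% of all windows). CHR and CCAAT together stood in 19 of 23 and 0 of 9 (11.3% of all). An E2F site stood in 1 of 23 G2 and mitosis windows, that of Cdk1, and in 6 of 9 S phase windows, Mcm6 among them but not Pcna (2.14% of all). A match describes letters in a window and is no evidence of binding, and its absence says only that these letters were not in this window.

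**Figure D1:**
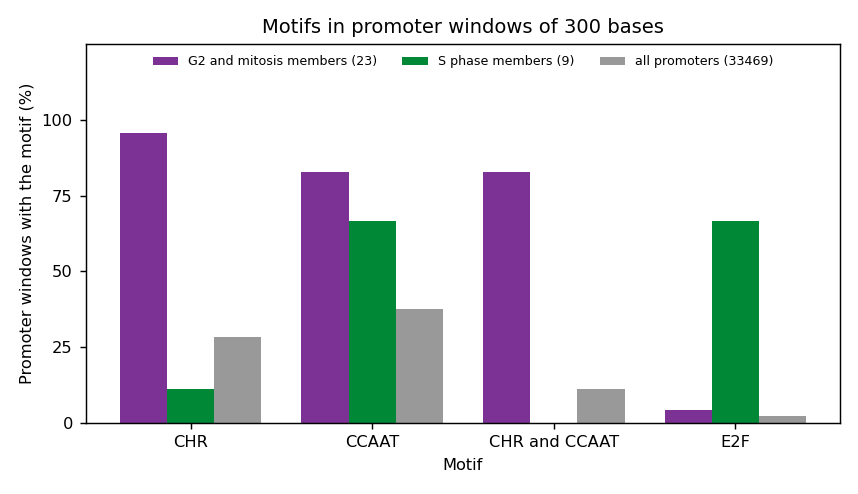
Share of promoter windows with each motif (percent, y axis) for G2 and mitosis members (23 windows), S phase members (9 windows) and all 33469 windows of the same length. A CHR was present in 22 of 23 G2 and mitosis windows and 1 of 9 S phase windows, and an E2F site in 1 of 23 and 6 of 9.

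The proliferation genes gave low signals. Of the 37 members, 34 had a mean below the median of all genes tested, 6.80 on the log2 scale. G2 and mitosis members had means between 3.97 and 6.73 with a median of 5.16, and S phase members between 4.31 and 9.71 with a median of 6.21. The highest signals were those of Pcna (9.71), Mcm7 (8.46) and Rrm1 (8.14), and the lowest those of Ccna2, a cyclin of S phase and G2 (3.97), Ttk, a kinase of the spindle checkpoint (4.07), and Melk (4.13). Probe sets for bacterial Trp transcripts, which rat muscle lacks, reached at most 4.04, and 27 members lay above this value on every array. Signals of different probe sets depend on their probes and do not rank transcripts by abundance. RMA compresses changes near the floor, so the changes of the dimmest members can be understated.

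Members of the G2 and mitosis list were lower in 12 of the 21 compounds than in same-vehicle controls, and no S phase member was called in any. A member was called where its adjusted p did not exceed 0.01 and its fold reached 1.5, from a limma fit of the compound arrays and the controls of the vehicle with time as a covariate, adjusted by Benjamini-Hochberg over all 14217 genes. There were 67 calls of a member in a compound, all of them lower and all of G2 and mitosis members, in 12 compounds and 13 genes. Over all genes and compounds, 0.949% of tests were called lower and 0.688% higher. Of the 567 pairs of a G2 and mitosis member and a compound, 350 had an unadjusted p under 0.05 with a lower level and 2 with a higher one. Of the 210 pairs of an S phase member and a compound, 0 were called by limma or by the methods' t-test, and 30 had such a p with a lower and 15 with a higher level. The share of all genes with such a p was not counted for the compounds, so these counts have no background.

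Etidronate, a bisphosphonate, had 12 members called lower (1.60% of all genes were), 15 with batch in the fit (1.67%) and 13 without the arrays of other organs (1.70%). Dicyclomine, an antimuscarinic, had 11 (2.76%), 15 with batch (1.97%) and 14 without those arrays (3.40%), but 1, Top2a, when its 2 arrays with myelin transcripts and those of the controls were left out (0.197%), where 22 members still had an unadjusted p under 0.05 with a lower level and 0 with a higher one. Buspirone, an anxiolytic, had 10 (0.394%), 12 with batch (0.113%) and 0 without those arrays (0%), and leaving out only Buspirone 3 d replicate 1, an array with heart transcripts, gave 1. Guanethidine, a blocker of sympathetic nerves, had 8 (2.52%), 12 with batch (0.176%) and 5 without those arrays (2.11%). These compounds held 41 of the 67 calls.

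Phenytoin, an anticonvulsant, had 5 (0.162%), 13 with batch (0.387%) and 0 without those arrays (0%). Levosulpiride, a dopamine receptor blocker, had 5 (3.54%), 1 with batch (0.00703%) and 2 without those arrays (3.17%). Chlorpropamide, a sulfonylurea, had 4 (1.86%), 3 with batch (0.0281%) and 3 without those arrays (1.45%). Losartan had 3 (0.218%), 8 with batch (0.197%) and 6 without those arrays (0.267%). Paroxetine had 3 (0.528%), 9 with batch (0.225%) and 6 without those arrays (0.668%). Trimethadione had 3 (0.211%), 12 with batch (0.204%) and 7 without those arrays (0.288%). Atenolol had 2 (2.97%), 3 with batch (0.0281%) and 2 without those arrays (2.34%), and Oxybutynin had 1 (0.0422%), 10 with batch (0.113%) and 3 without those arrays (0.0492%). In Atenolol, Chlorpropamide and Levosulpiride, 1, 2 and 1 of these members were called with batch in the fit too, whereas every call of the other 9 compounds was.

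No member was called by limma in the other 9 compounds. Spironolactone, an aldosterone receptor blocker, had 0 (0% of all genes), 8 with batch in the fit (0.380%) and again 0 with batch and without the arrays of other organs, and 21 of its 27 G2 and mitosis members had an unadjusted p under 0.05 with a lower level. The counts at an unadjusted p were 19 in Flunarizine (0.0703% of all genes called lower), 19 in Pentoxifylline (0.0141%), 18 in Sulpiride (0.00703%), 11 in Azaribine (0.0141%), 9 in Famotidine (0%), 6 in Glyburide (2.86%), 5 in Dexchlorpheniramine (0%) and 3 in Gabapentin (0.176%). These percentages are of genes called at the stricter limits and are no background for the counts at an unadjusted p. The methods' t-test called 0 members in these 9 compounds too. Within the batches that held both treated rats and controls of the vehicle, 13 compounds could be compared, Azaribine with only 1 treated array. There 3 members were called, all in Etidronate (0.485% of all genes were called lower), against 12 with all arrays. The other calls of the 7 compounds with such batches kept a negative change there, with 0% of all genes called lower in Dicyclomine, Oxybutynin, Phenytoin and Trimethadione, 0.0844% in Losartan and 0.00703% in Paroxetine. At an unadjusted p under 0.05, between 15 and 25 members were lower in these 6 compounds and 0 higher. The share of all genes with such a p was not counted there either.

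**Figure D2:**
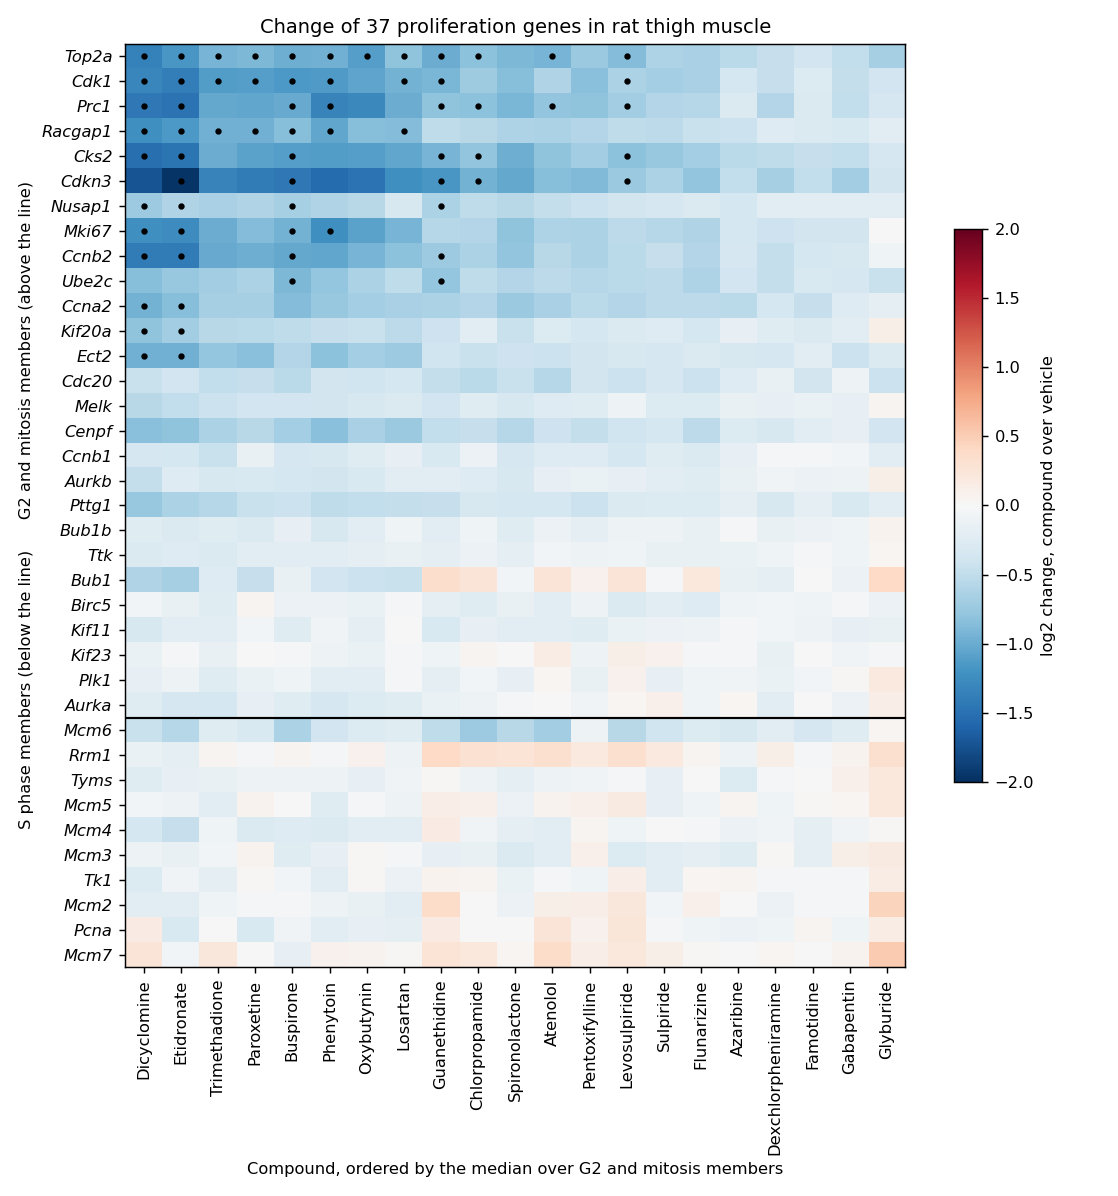
Log2 change (colour scale, treated minus same-vehicle controls) of the 37 members in 21 compounds, with G2 and mitosis members and S phase members apart, and calls marked. All 67 calls lie among the G2 and mitosis members and all are lower.

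The class as a whole showed the same difference. The median change over the 27 G2 and mitosis members was below 0 in all 21 compounds, between -0.76 in Dicyclomine and -0.18 in Glyburide, while the median of all genes lay between -0.01 and 0.03. It stayed below 0 in 21 of 21 compounds with batch in the fit, in 13 of 13 within shared batches and in 21 of 21 without the arrays of other organs. Within shared batches Azaribine had only 1 treated array. The median over the 10 S phase members lay between -0.19 in Phenytoin and 0.20 in Glyburide and was below 0 in 14 compounds, and with batch it was below 0 in 21. These medians describe the lists, and the compounds of a vehicle share their controls.

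The mean level of the G2 and mitosis members on each array showed where the groups lay. It averaged 4.75 ± 0.11 in Dicyclomine (SD, 4 arrays) and 4.79 ± 0.09 in Etidronate (6 arrays), against 5.53 ± 0.38 in the Water controls (18 arrays). It averaged 4.89 ± 0.18 in Buspirone (6 arrays), against 5.49 ± 0.17 in the CMC controls (12 arrays), and 5.69 ± 0.24 in the CMC/SDS/Povidone controls (6 arrays). The compound with the highest mean was Glyburide at 5.32 ± 0.22 (5 arrays), or 5.23 ± 0.15 without the array with lymphoid transcripts, and the means of all 21 compounds lay below that of each control set. Of the 122 treated arrays, 83 lay below the lowest control of their own vehicle and 119 below its median. For the S phase members these counts were 16 and 74. The share of all genes that separate likewise was not counted, so these counts have no background. Without the arrays of other organs, the Water controls averaged 5.46 ± 0.23 (15 arrays) and the CMC controls 5.46 ± 0.18 (9 arrays).

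**Figure D3:**
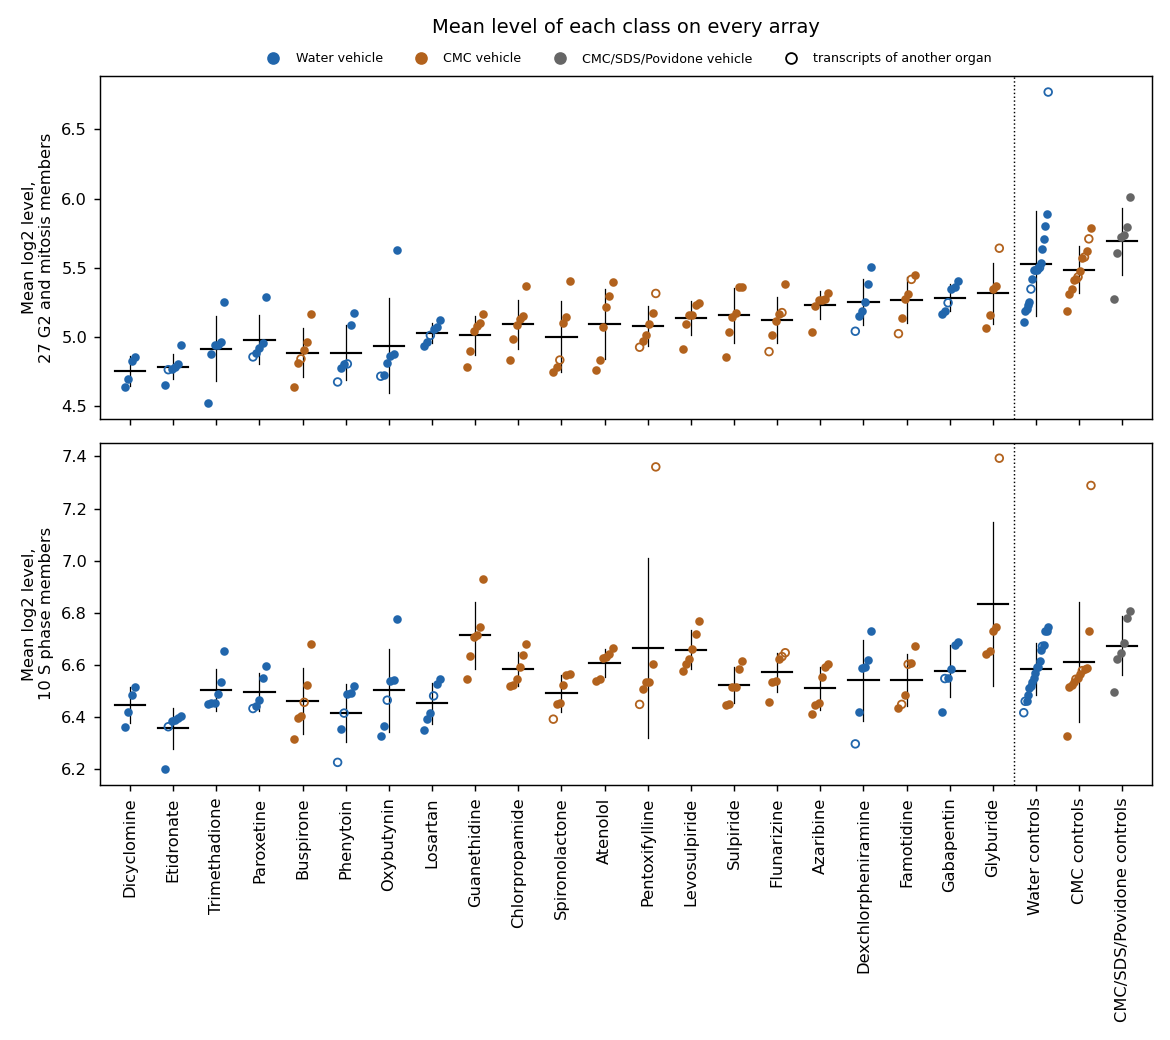
Mean log2 level per array of the 27 G2 and mitosis members and of the 10 S phase members, for each compound and its controls (points are arrays, open circles arrays with transcripts of another organ, black bars means, vertical lines SD). The compound means of the G2 and mitosis members lie between 4.75 and 5.32, below the control means of 5.49, 5.53 and 5.69.

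Top2a, the topoisomerase that untangles replicated DNA, was called most often, in 12 compounds. Its 4 arrays in Dicyclomine read 4.63, 4.90, 4.65 and 4.88, against 5.46 at the lowest, 6.16 at the median and 6.80 at the highest in the 18 Water controls. The groups did not overlap, and the change was -1.35 ± 0.18 (log2, SE, adjusted p = 2.9e-05, limma). In Etidronate it read between 4.91 and 5.06 with a median of 4.93, a change of -1.16 ± 0.15 (adjusted p = 1.7e-05), again with no overlap with the Water controls. In Guanethidine it read between 4.81 and 5.30 with a median of 5.18, against 5.49, 6.15 and 6.48 as the lowest, median and highest of the CMC controls, and in Buspirone between 4.70 and 5.49 with a median of 5.15. The highest Buspirone array lay just under the lowest CMC control, both at 5.49 after rounding, and neither compound overlapped with the controls. The changes were -0.997 ± 0.132 in Guanethidine and -0.98 ± 0.15 in Buspirone. All 122 treated arrays lay below the median of their own controls and 88 below the lowest of them, and the change was negative in all 21 compounds, from -1.35 to -0.38 in Famotidine. How many of all genes had groups that did not overlap, or as many treated arrays below their controls, was not counted. Such statements, here and for the genes below, therefore have no background.

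The probe set of Top2a used here differed from another one for the same gene. That probe set had a mean signal of 4.65, against 5.49 for the one used, and called no compound. It gave -0.34 in Dicyclomine, -0.31 in Phenytoin and -0.19 in Etidronate, and 0.02 ± 0.12 in Chlorpropamide, where the probe set used gave -0.81 ± 0.14. Of the members called, Racgap1 and Nusap1 also had a further probe set. For Racgap1 it gave changes from -0.34 to -0.07 in the 7 compounds where the gene was called, and none was called, the smallest adjusted p being 0.0098 in Dicyclomine with a fold under 1.5. For Nusap1 it gave -0.50 to -0.46 in 4 compounds, with the fold too small in all and an adjusted p of 0.0031 in Guanethidine. Of the members not called, Kif23 had a further probe set of mean 4.47, against 4.62 for the one used. Its SD over all arrays was larger, 0.41 against 0.16. A further probe set also had a larger SD for Ccnb1 (0.41 against 0.26), Kif11 (0.33 against 0.22) and Tk1 (0.25 against 0.19). Those of Cdc20 and Ttk had smaller ones. The changes on these probe sets are not given here.

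Cdk1, the kinase that drives entry into mitosis, was called in 9 compounds, and its change was negative in all 21. In Etidronate it read between 4.47 and 5.03 with a median of 4.72, against 5.42, 6.09 and 7.11 as the lowest, median and highest Water control. The groups did not overlap, and the change was -1.39 ± 0.20 (adjusted p = 8.8e-05). Dicyclomine read 5.29, 4.92, 4.41 and 4.68, below the same controls, with a change of -1.30 ± 0.24 (adjusted p = 0.00057). Buspirone read between 4.47 and 5.50, against 5.60 to 6.71 in the CMC controls, a change of -1.15 ± 0.17. Famotidine was nearest to its controls at -0.27.

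Among the partners of Cdk1, the cyclin Ccnb2 was called in Buspirone, Dicyclomine, Etidronate and Guanethidine, at -1.03, -1.40, -1.40 and -0.72. Its Water controls ran from 5.20 to 8.43, the highest being the array with spermatid transcripts, and without the arrays of other organs the changes in Dicyclomine and Etidronate were -1.24 and -1.18 (adjusted p = 1.4e-05 and 3.9e-06). Ccna2 was called in Dicyclomine and Etidronate, at -0.95 ± 0.19 and -0.85 ± 0.16, where the treated arrays read 3.19 to 3.62 and 3.34 to 3.69, against 3.91 to 5.62 in the Water controls. All of those treated values lie below 4.04, the highest value of the bacterial probe sets. Ccnb1, the other B cyclin measured, was called in 0 compounds, with changes from -0.44 to -0.03 on the probe set used.

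Cks2, a small protein that binds Cdk1, was called in 6 compounds. Dicyclomine read 4.35, 4.35, 4.46 and 4.50, against 5.19, 5.99 and 7.97 as the lowest, median and highest Water control, and the change was -1.52 ± 0.32 (adjusted p = 0.0018). Without the arrays of other organs it was -1.41 (adjusted p = 5.6e-05). Etidronate read between 4.23 and 4.82 with a median of 4.42, a change of -1.47 ± 0.26. In these compounds and the Water controls the ranges did not overlap, whereas the 6 Buspirone arrays, from 4.35 to 5.36, overlapped with the CMC controls, from 5.20 to 6.82 (change -1.11 ± 0.19). Cdkn3, a phosphatase that acts on Cdk proteins, was called in 5 compounds, at -1.96 ± 0.46 in Etidronate, -1.43 ± 0.16 in Buspirone, -1.16 in Guanethidine, -0.95 in Chlorpropamide and -0.74 in Levosulpiride. The array with spermatid transcripts lay at 10.55 in its Water controls, and without the arrays of other organs the change in Etidronate was -1.70 (adjusted p = 1e-06).

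Prc1, which bundles microtubules between the parting chromosomes, was called in 8 compounds. Etidronate read between 4.89 and 5.61 with a median of 5.29, against 6.16, 6.68 and 8.92 as the lowest, median and highest Water control, with no overlap and a change of -1.48 ± 0.26 (adjusted p = 0.00056). Dicyclomine read 5.39, 5.48, 5.08 and 5.30, a change of -1.44 ± 0.31. Without the arrays of other organs these changes were -1.25 and -1.30 (adjusted p = 2.3e-05 and 1.4e-05). Prc1 was below the median of its own controls on 121 of 122 treated arrays.

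Racgap1, a subunit of the complex that sets the site of cleavage, was called in 7 compounds, 6 of them given in water. Dicyclomine read 4.55, 4.69, 4.58 and 4.26 and Etidronate between 4.45 and 4.88, against 5.14, 5.69 and 6.40 as the lowest, median and highest Water control, and neither overlapped. The changes were -1.22 ± 0.16 (adjusted p = 3.1e-05) and -1.15 ± 0.15 (adjusted p = 1.7e-05). The mean of the CMC/SDS/Povidone controls was 6.27, above the 5.68 of the CMC controls. Ect2, which activates the small GTPase of the cleavage furrow, was called at -0.96 in both Dicyclomine and Etidronate, and Kif20a, a kinesin of the same stage, at -0.81 and -0.69. Kif23, the motor partner of Racgap1, was called in 0 compounds and lay between -0.15 and 0.16 on the probe set used.

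Mki67, the coat protein of mitotic chromosomes used as a marker of dividing cells, was called in 4 compounds. Etidronate read between 3.66 and 3.93, Phenytoin between 3.74 and 4.04 and the 4 Dicyclomine arrays 3.96, 4.09, 3.68 and 3.74, against 4.33, 5.06 and 6.41 as the lowest, median and highest Water control. None of these overlapped with the controls, and the changes were -1.25 ± 0.22, -1.23 ± 0.22 and -1.23 ± 0.26 (adjusted p = 0.00053, 0.0044 and 0.0019). Apart from the Dicyclomine array at 4.09, these treated values did not exceed 4.04 after rounding, the highest value of the bacterial probe sets. Buspirone was called at -0.94 ± 0.15. The highest treated mean was that of Glyburide, 4.94 ± 0.57 (SD, 5 arrays), against 4.98 ± 0.34 in the CMC controls (12 arrays), and its change was 0.003 ± 0.206, or -0.85 ± 0.29 with batch in the fit (adjusted p = 0.44) and -0.05 without the arrays of other organs. With batch in the fit, 12 compounds were called.

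**Figure D4:**
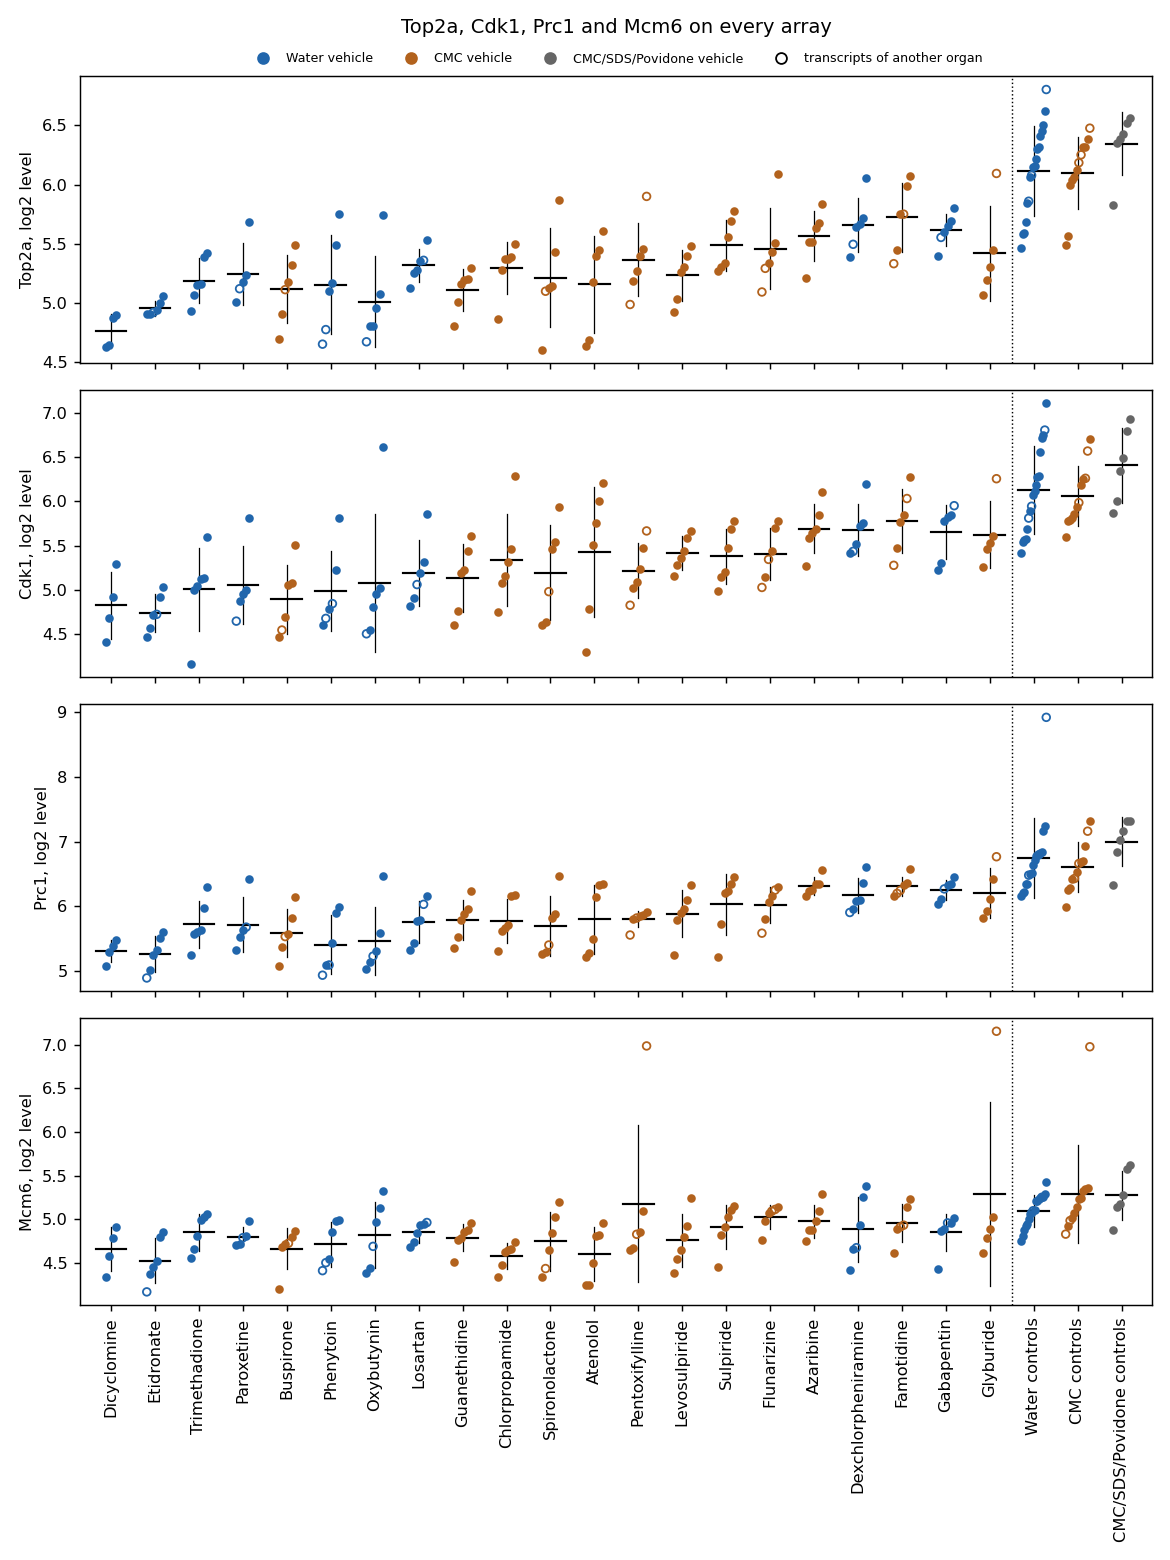
Log2 level on each array of Top2a, Cdk1, Prc1 and Mcm6 by compound, with the 3 sets of controls at the right (open circles, arrays with transcripts of another organ; black bars, means; vertical lines, SD). Top2a lies below the median of its own controls on all 122 treated arrays and Mcm6 on 112, and the 3 arrays with lymphoid transcripts are the highest of Mcm6, at 6.98 in the CMC control.

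Spindle and anaphase genes made up the remaining calls. Nusap1, which binds spindle microtubules, was called in Buspirone (-0.67), Dicyclomine (-0.73), Etidronate (-0.60) and Guanethidine (-0.63). Ube2c, the enzyme that brings ubiquitin to the anaphase-promoting complex, was called in Buspirone (-0.89 ± 0.12, adjusted p = 0.0014) and Guanethidine (-0.77 ± 0.11, adjusted p = 0.00012). In both, the treated arrays, 5.15 to 5.77 and 5.47 to 5.73, lay below all CMC controls, 6.03 to 6.74. The other 14 G2 and mitosis members were called in 0 compounds. Of these, Cenpf, a kinetochore protein, reached -0.84 in Dicyclomine, Pttg1, the securin, -0.76 in Dicyclomine, and Bub1, a checkpoint kinase, -0.66 in Etidronate, while Bub1 was above 0 in 8 compounds. On the probe sets used, the mitotic kinases Plk1 and Aurka had changes from -0.25 to 0.20 and from -0.35 to 0.14. The spindle kinesin Kif11 had changes from -0.32 to -0.01, and Birc5, a partner of Aurkb, from -0.29 to 0.06.

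Top2a, Cdk1 and Racgap1 recurred among the calls of the compounds given in water. In Phenytoin the called members were Mki67 (-1.23), Top2a (-0.96), Cdk1 (-1.14), Prc1 (-1.34) and Racgap1 (-1.04). Losartan, Paroxetine and Trimethadione had the same genes called, Top2a at -0.80, -0.90 and -0.93, Cdk1 at -0.94, -1.10 and -1.12, and Racgap1 at -0.86, -0.96 and -0.97. In Paroxetine the 5 Top2a arrays read 5.01 at the lowest, 5.18 at the median and 5.69 at the highest. The highest of these lay within the range of the Water controls. In Oxybutynin only Top2a was called, at -1.11 ± 0.16 (adjusted p = 0.0013), with arrays from 4.67 to 5.74 that overlapped the Water controls, from 5.46 to 6.80. Among compounds given in CMC, Prc1, Cdkn3 and Cks2 stood beside Top2a. Levosulpiride had Top2a (-0.86), Cdk1 (-0.63), Prc1 (-0.70), Cdkn3 (-0.74) and Cks2 (-0.82) called. Chlorpropamide had Top2a (-0.81), Prc1 (-0.82), Cdkn3 (-0.95) and Cks2 (-0.79), and Atenolol had Top2a (-0.94) and Prc1 (-0.79). The larger sets of Guanethidine also held Cdk1 (-0.91), Prc1 (-0.81) and Cks2 (-0.93), and those of Buspirone Prc1 (-1.002) and Racgap1 (-0.85). On the Water control with spermatid transcripts, Cdkn3, Prc1 and Cks2 read 10.55, 8.92 and 7.97, against at most 6.47, 7.24 and 6.52 on other Water controls. Top2a and Racgap1 read 6.80 and 6.11, against at most 6.62 and 6.40. Without that array, Losartan, Paroxetine, Phenytoin and Trimethadione had 10, 8, 10 and 9 members called. A difference between vehicles in the genes called was not tested.

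S phase members lay closer to their controls, and none was called with all arrays in the fit of each compound. Under the alternatives other than leaving out single arrays, 1 of the 10 was called, Mcm6, in Atenolol and Chlorpropamide in the fit of all arrays with no batch (-0.68 and -0.70), in Etidronate with hybridization period as a block (-0.59) and in Chlorpropamide without the arrays of other organs. Pcna, the sliding clamp, read between 9.33 and 9.55 in Etidronate, against 9.38, 9.76 and 10.74 as the lowest, median and highest Water control, and its change was -0.31 ± 0.12 (adjusted p = 0.087). In Atenolol, where it was highest, it averaged 9.96 ± 0.20 (SD, 6 arrays), against 9.69 ± 0.26 in the CMC controls, a change of 0.26. Treated and control arrays overlapped in both, and 64 of 122 treated arrays lay below the median of their controls. Rrm1, the large subunit of ribonucleotide reductase, ranged from -0.18 in Etidronate to 0.40 ± 0.11 in Guanethidine (adjusted p = 0.014), and Tyms, the thymidylate synthase, from -0.27 in Azaribine to 0.22 in Glyburide. The Glyburide value includes the array with lymphoid transcripts.

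Mcm6, a helicase subunit, was the S phase member nearest to a call. Etidronate read between 4.17 and 4.85 with a median of 4.48, against 4.75, 5.10 and 5.42 as the lowest, median and highest Water control, and the change of -0.57 ± 0.09 had an adjusted p of 0.00035 but a fold just short of 1.5. Leaving out any 1 of 5 arrays in turn brought it past both thresholds. In Chlorpropamide it read between 4.34 and 4.74, against 4.83 to 6.98 in the CMC controls, where the highest value was that of the array with lymphoid transcripts, and the change was -0.72 (adjusted p = 0.037). Without the arrays of other organs it was called there, at -0.59 (adjusted p = 0.0015). Mcm6 lay below the median of its own controls on 112 of 122 treated arrays, whereas Mcm7, another subunit, had a negative change in only 3 compounds and reached 0.52 in Glyburide. Mcm2 to Mcm5 and Tk1 lay between -0.46 and 0.44.

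Further cell cycle genes were read as a wider list. Of 55 measured G2 and mitosis genes outside the members, 14 calls in 8 compounds were lower and 5 higher. These are 1.21% and 0.433% of their tests, near the 0.949% and 0.688% of all genes in the same fits. With batch in the fit, 19 calls were lower (1.65%, against 0.275% of all genes) and 0 higher. Without the arrays of other organs, 10 were lower (0.866%, against 0.855%) and 4 higher (0.346%, against 0.517%). Within shared batches 0 were called lower (0.0563% of all genes were). In the fits of each compound with all arrays, the median change was below 0 in 20 of 21 compounds, lowest at -0.26 in Etidronate. Cdca3, which triggers entry into mitosis, was lower in Dicyclomine (-0.91 ± 0.16, adjusted p = 0.00035) and Etidronate (-0.80 ± 0.14). Aspm, a protein of the spindle pole, was lower in Buspirone (-0.69) and Etidronate (-0.77), and Hmmr in Etidronate (-0.65). The 5 higher calls were all of Cenpk, a kinetochore gene, in Atenolol, Chlorpropamide, Glyburide, Guanethidine and Levosulpiride, at 0.89 to 1.09. None of those compounds shared a batch with CMC controls, and with batch in the fit Cenpk lay between 0.10 and 0.29 and was not called. Of 43 further S phase genes, Pola2, a polymerase subunit, was lower in Dicyclomine (-0.80), and Rfc4, a clamp loader subunit, was higher in Atenolol, Glyburide, Guanethidine and Levosulpiride and Slbp in Levosulpiride, all in compounds with no CMC control in their batches. None of these 5 higher calls held with batch in the fit.

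Markers of other cell types moved with the members in some compounds. The 10 fibroblast markers had a median change below 0 in 20 of 21 compounds, with 20 calls lower (9.52% of their tests, against 0.949% of all genes) and 1 higher, and in 21 of 21 compounds with batch in the fit, with 4 calls lower (1.90%, against 0.275% of all genes). Their summed level on the linear scale ran from 21551 to 43520 with a median of 28698 in Dicyclomine and from 21480 to 42931 with a median of 28762 in Etidronate, against 28299 to 59680 with a median of 46258 in the Water controls. The 5 red blood cell markers measured had a median below 0 in 20 compounds with 10 calls lower (9.52%), and their summed level ran from 814 to 3131 in Dicyclomine and from 2027 to 4079 in Etidronate, against 2837 to 7434 in the Water controls. The 9 endothelial markers had a median below 0 in 16 compounds with 3 calls lower (1.59%), among them the receptor Kdr in Dicyclomine (-1.06) and Etidronate (-0.85). Of 6 satellite cell markers, Myod1 and Vcam1 were lower in Etidronate (-1.23 and -1.13) and Sdc4 higher (1.11), and over all compounds the list had 7 calls lower (5.56%) and 3 higher (2.38%, against 0.688% of all genes). The 10 macrophage markers had a median below 0 in 17 compounds with 4 calls lower (1.90%), and the 9 lymphoid markers in 10 with 0 calls. Among the compounds with member calls alone, the 4 tendon markers had their lowest medians at -1.94 in Levosulpiride, -1.78 in Trimethadione, -1.63 in Dicyclomine, -1.50 in Guanethidine, -1.43 in Atenolol and -1.23 in Chlorpropamide. The tendon list had 1 call (1.19%), Fmod in Levosulpiride. Their summed level ran from 798 to 1267 with a median of 812 in Dicyclomine, against 641 to 6843 with a median of 3144 in the Water controls. In Etidronate it ran from 1684 to 6602 with a median of 2476. Glyburide, with 0 members called, had the lowest median sum of any set, 646 (465 to 991). Buspirone, with 10 members called, had 4223 (585 to 5870), and the CMC controls had 2594 (603 to 6596). Within shared batches the tendon medians were -1.72 in Phenytoin, -1.38 in Paroxetine and -1.01 in Trimethadione. The 8 fat cell markers had medians from -0.77 in Flunarizine to 0.45 in Oxybutynin, with 1 call lower (0.595%) and 2 higher (1.19%). The 12 markers of skeletal muscle, the labelled tissue, had medians between -0.01 and 0.06 with 1 call, and their summed level ran from 128770 to 185561 on treated arrays and from 143662 to 182990 on control arrays. With batch in the fit, 4 calls of red blood cell markers (3.81%) and 2 of satellite cell markers (1.59%) were lower. So were 3 of endothelial markers (1.59%) and 3 of macrophage markers (1.43%), against 0.275% of all genes. Lymphoid, fat cell, tendon and skeletal muscle markers had 0 lower calls there. Higher there were 1 call of satellite cell markers (0.794%) and 1 of fat cell markers (0.595%). The part of these cell types in the members' changes was not tested.

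Whether the changes depended on time was asked with the product of treatment and time, which called 0.0660% of all genes over the 21 compounds and 1.30% in Dicyclomine. No member was called for a difference between 5 d and 3 d in any compound, by limma or by the methods' t-test, with between 0 and 7 members a compound at an unadjusted p under 0.05 by limma and between 0 and 8 by the t-test. The smallest adjusted p of a member was that of Pcna in Dicyclomine, where the change was 0.57 at 5 d and -0.24 at 3 d (difference 0.81 ± 0.30, adjusted p = 0.17). The median change of the G2 and mitosis members lay below 0 at both times in all 21 compounds, between -0.77 and -0.06 at 5 d and between -0.83 and -0.03 at 3 d.

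The controls alone were compared by time and by vehicle. Each side of these comparisons pooled several studies and batches, so they give no background for the study or batch of a compound. Between 5 d and 3 d, limma called 0 genes (0%) and 0 members in the 36 controls, with and without batch in the fit. At an unadjusted p under 0.05, 353 genes were lower and 187 higher at 5 d, and 4 members were among the lower ones (6 with batch), Ccnb1 with the smallest p at -0.20 ± 0.08. Between Water and CMC, limma called 0 genes and 0 members, and 368 genes lower and 657 higher in Water had such a p, 0 of them members. Only Dicyclomine and Trimethadione had at least 4 controls of their own vehicle and animal study. Against those, the median of the 27 G2 and mitosis members was -0.89 in Dicyclomine, with 26 below 0, and -0.69 in Trimethadione, with 27 below 0. Among the 4 controls was the array with spermatid transcripts, and without it the medians were -0.51 with 24 below 0 and -0.26 with 25 below 0. Limma called 0 members and 0% of all genes in each of these comparisons of few arrays, with the smallest adjusted p of a member at 0.036 in Dicyclomine. At an unadjusted p under 0.05, 13 members were lower in Dicyclomine (18 without that array), 11 in Trimethadione (9 without it) and 0 higher. Another of the 4 controls, Water 5 d replicate 9, had myelin transcripts. Its mean level of the G2 and mitosis members, 5.11, was the lowest of the Water controls. Myelin transcripts were also present on 2 of the Dicyclomine arrays and 1 of Trimethadione.

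The members varied together in the absence of any compound. Across the 36 controls, 24 of the other 26 G2 and mitosis members and 7 of 10 S phase members correlated with Top2a with an adjusted p not above 0.05 over 36 relations (two-sided permutation test, 100000 resamples), and 24 and 6 did so by Spearman's rho. The weakest of the Pearson correlations that passed was 0.353, which 4.51% of all other genes reached or exceeded, and the median r over all genes was 0.03. Pearson's r had a median of 0.62 over the G2 and mitosis members, from 0.01 for Kif11 to 0.84 for Cdk1, and of 0.37 over the S phase members. Cdk1 (r = 0.84, rho = 0.88), Mki67 (0.82 and 0.84), Cks2 (0.82 and 0.87) and Racgap1 (0.79 and 0.80) were the most like Top2a, each with a p of 1e-05, the smallest that the permutations could give, and an adjusted p of 3e-05. Without the 2 controls farthest from the median of Top2a, Water 5 d replicate 9 and CMC 3 d replicate 7, the medians were 0.65 and 0.33. Without the controls with transcripts of another organ (30 arrays) they were 0.67 and 0.39, and 22 and 5 members passed. Within batches A, B and C the medians were 0.65, 0.79 and 0.62 for G2 and mitosis members and 0.38, 0.41 and 0.44 for S phase members. The genes of 1 array share its RNA and its normalization.

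**Figure D5:**
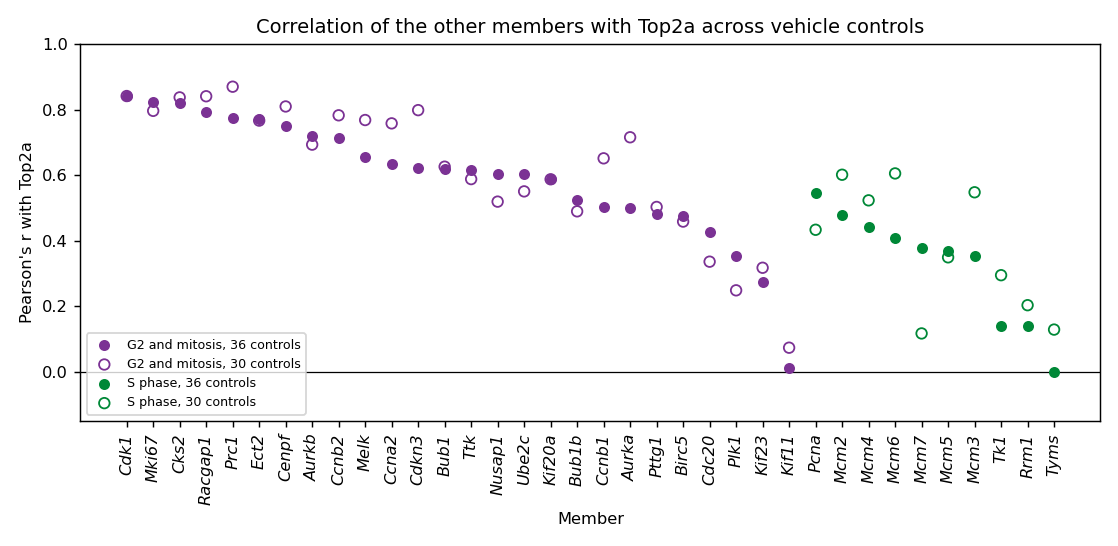
Pearson's r with Top2a across the 36 vehicle controls for each of the other 36 members, G2 and mitosis members apart from S phase members, with open circles for the 30 controls without transcripts of another organ. With 36 controls, G2 and mitosis members lie between 0.01 and 0.84 with a median of 0.62, and the median of the S phase members is 0.37.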

How the data were processed

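Thigh muscle RNA was hybridised to 1-colour Affymetrix rat arrays, and the deposited table holds log2 values for 31099 probe sets that the authors made with RMA (background correction, quantile normalization and summary of probes), per the submitters' processing notes, with the version not given in the sources used here. The study's methods name frozen RMA. RMA puts arrays on 1 distribution, so a change in all genes cannot be seen, and it compresses low signals. The array medians lay between 5.69 and 5.89, and the number of arrays limits the precision. Annotation paired 20826 probe sets with 1 gene symbol, 436 with several and 9780 with none, and left 14217 genes, each read from the probe set of highest mean.

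Each compound was fitted with limma 3.58.1 (R 4.3.3) over its arrays and the controls of its vehicle, as treatment plus time, with Benjamini-Hochberg adjustment over all genes. Calls needed a fold of at least 1.5 and an adjusted p of at most 0.01. The fit was tested on simulated data with 200 changed genes. Alternatives were extraction batch or hybridization period as a block, shared batches only, own-study controls, 1 fit of all arrays, the methods' t-test, other probe sets, median centring and leaving out arrays. The fits without arrays of other organs and without arrays with myelin transcripts were chosen after seeing the data. Correlations and counts used Python 3.11.15, pandas 2.3.3, numpy 2.4.6 and scipy 1.17.1. The yeast control probe sets meant as a guide to low signal were not used here, and 3 probe sets for bacterial Trp transcripts took their place. The labels give each array's animal study and extraction batch, and the replicate numbers follow accession order, so p-values measure the spread between these samples. 1 CMC array is titled 5 d while its other labels give 3 d, and it was grouped at 3 d.

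The members and lists were chosen with earlier results of these data known. Named were every called member, Mki67 and Pcna, the 5 G2 and mitosis members called in most compounds and the 3 S phase members nearest to a call, the 3 highest and lowest signals, and up to 4 called genes of the wider lists with the largest changes in the compounds with most calls. Members with 0 calls were given by ranges, and those named beyond this rule were chosen after their values were seen.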

Additional observations from a re-analysis of the deposited data

Results flagged for a closer look

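In 5 control groups of 5 to 9 arrays, 50 pairs of a named member and a group were searched for an array far from the rest of its group, and 8 were found. By chance about 1 in 20 independent pairs would be found. These pairs share arrays and genes that vary together, so they are not independent and the count is a description only. On the Water control 5 d replicate 4, the array with spermatid transcripts, Pcna read 10.74 (group median 9.67), Prc1 8.92 (6.48) and Cks2 7.97 (5.45), each the highest of its group. On the CMC control 5 d replicate 2, the array with lymphoid transcripts, Pcna read 10.25 (9.66) and Mcm6 6.98 (5.07). Rrm1 read 7.41 on the CMC control 3 d replicate 7 (8.10), Top2a 5.83 on the CMC/SDS/Povidone control 5 d replicate 6 (6.41) and Cks2 5.19 on the Water control 3 d replicate 5 (6.13), each the lowest of its group. The values of these arrays enter the control means, and the fits without arrays of other organs leave out the first and the second of these arrays.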

How the results depend on the processing

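All 67 calls kept a negative change in every alternative run on the same probe sets, and 0 members were called higher except Mcm7 in a refit without 1 array. Extraction batch as a block called 121 members lower and kept 60 of the 67, with 1 in Levosulpiride, 8 in Losartan, 10 in Oxybutynin, 9 in Paroxetine, 13 in Phenytoin, 8 in Spironolactone and 12 in Trimethadione. With that block and without the arrays of other organs, 56 were called and 38 kept, with 0 in Atenolol, Buspirone, Chlorpropamide, Levosulpiride and Spironolactone, 5 in Losartan, 5 in Oxybutynin and 6 in Trimethadione. Without those arrays but with no block, 61 were called and 40 kept, with 0 in Buspirone, 5 in Guanethidine, 2 in Levosulpiride, 6 in Losartan, 3 in Oxybutynin, 6 in Paroxetine, 0 in Phenytoin and 7 in Trimethadione. Within shared batches, with fewer arrays, 3 of 38 were called, all in Etidronate, and 0 in Dicyclomine, Losartan, Oxybutynin, Paroxetine, Phenytoin and Trimethadione. Hybridization period as a block gave 4 in Buspirone. All CMC controls lay in the same period, so the change of a CMC compound rests there on its treated arrays of that period. Buspirone had 2 such arrays. Chlorpropamide and Guanethidine had 1 each, so no count is given for them, and Atenolol, Glyburide and Levosulpiride had 0. Own-study controls, with and without the spermatid array, gave 0 in Dicyclomine and 0 in Trimethadione. The fit of all arrays with no batch called 132 and kept 65, with 7 in Atenolol, 1 in Glyburide, 3 in Levosulpiride, 11 in Losartan, 10 in Oxybutynin, 11 in Paroxetine, 1 in Pentoxifylline, 13 in Phenytoin, 4 in Spironolactone and 13 in Trimethadione. The methods' t-test gave 1 in Atenolol, 2 in Buspirone and 3 in Phenytoin. All probe sets gave 5 in Atenolol, 1 in Flunarizine and 3 in Phenytoin, median centring 6 in Atenolol, 1 in Flunarizine and 1 in Glyburide, and leaving out arrays with a Gapdh 3' to 5' difference over 1 gave 9 in Chlorpropamide. Without the arrays with myelin transcripts 54 were called and 53 kept, with 1 in Atenolol, 1 in Dicyclomine (of which 2 arrays were left) and 2 in Oxybutynin. On the further probe set of Top2a, the log2 change of Top2a in Chlorpropamide was 0.0225. The cause of these differences was not tested. Keeping only genes above the median level left Pcna, Mcm7 and Rrm1 of the members, and no count was made.

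Leaving out 1 array at a time, 29 of the 67 calls held in every refit. The count ran from 1 to 8 in Atenolol (8 without its 5 d replicate 1, 5 without CMC 3 d replicate 1 or 7, and 1 without its 5 d replicates 2 or 3, CMC 3 d replicates 2, 4, 5 or 6 or CMC 5 d replicates 3, 4 or 5), 1 to 12 in Buspirone (1 without its 3 d replicate 1, 5 without its 5 d replicate 1), 2 to 9 in Chlorpropamide (2 without its 3 d replicate 1 or 5 d replicate 3, 9 without its 3 d replicate 2), 6 to 14 in Dicyclomine (6 without its 5 d replicate 1, 7 without its 3 d replicate 1 or 5 d replicate 2), 8 to 13 in Etidronate, 5 to 9 in Guanethidine (5 without its 3 d replicate 1) and 2 to 6 in Levosulpiride (2 without its 5 d replicate 3, 3 without its 3 d replicates 1 or 3 or 5 d replicate 1). It ran from 2 to 10 in Losartan, 1 to 5 in Oxybutynin, 0 to 8 in Paroxetine, 1 to 10 in Phenytoin and 1 to 9 in Trimethadione, each highest without Water 5 d replicate 4. It was 5 in Losartan and 2 in Oxybutynin without Water 3 d replicate 5, 5 in Oxybutynin without its 3 d replicate 3 and 2 without Water 5 d replicate 9, 0 in Paroxetine without its 3 d replicate 1 and 1 without its 5 d replicates 1 or 2, 1 in Trimethadione without its 3 d replicate 3, and in Phenytoin 1 without its 3 d replicates 2 or 3 and 3 without its 5 d replicates 1 or 3, Water 3 d replicates 1 or 4 or Water 5 d replicates 2, 3 or 6. It ran from 0 to 4 in Spironolactone (4 without its 5 d replicate 1), 0 to 1 in Flunarizine (1 without CMC 3 d replicates 1 or 3) and 0 to 1 in Glyburide (1 without CMC 3 d replicate 7 or its own 3 d replicate 1), and stayed at 0 in the other 6. Mcm7 was called higher in Glyburide (0.59) without CMC 5 d replicate 2. No paired analysis was possible because the replicate numbers only follow accession order. Signals near the floor limit the change that can be seen in the dimmest members.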
